A study of Mus musculus with 6 samples.

Results

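ATF4 and CHOP are the transcription factors at the core of the integrated stress response, and 9 of the 22127 genes in the mRNA data of this study encode them, the related factors they work with and the proteins that limit them. The genes were chosen by symbol. These 9 and the lists of other genes below were set with earlier results of these data known. Atf4, Ddit3 (the gene of CHOP), Atf3, Atf5, Cebpb and Cebpg encode 6 transcription factors, and Trib3, Ppp1r15a and Nupr1 encode 3 proteins of feedback or cofactor function. All 9 had at least 10 reads in both libraries together and so entered the comparison with 16870 genes.

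The cells were GC-2 spd(ts), a line derived from mouse spermatocytes, the meiotic male germ cells. It carries SV40 large T antigen together with a p53 that is sensitive to temperature, which limits it as a model of normal p53 and cell cycle control. They were synchronised for 12 h in medium without serum and then kept for 48 h in complete medium with 10% serum. One culture received 120 µM bisphenol A (BPA), a monomer of polycarbonate plastics, and the control received 0.1% dimethyl sulfoxide, the solvent of BPA, with 0 µM BPA. Each group was 1 culture of 1 line and gave 1 mRNA library, so no difference here has a replicate check, no test was possible and no p-value was computed.

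Depth was 32312872 mRNA reads in control and 33071378 with BPA. A ratio is BPA over control on the log2 scale, with a 95% counting interval. These intervals compare the reads of 2 libraries and cover counting error only. PCR reads without molecular identifiers are not independent molecules, so the intervals may be too narrow even for that error. Of 20 markers of meiotic spermatocytes, 8 had a row and 5 had at least 10 reads; the synaptonemal complex gene Syce2 had 1655 reads in control and 2151 with BPA, and the chaperone gene Hspa2 411 and 588. Most others were near 0, such as the synaptonemal complex gene Sycp3 with 6 and 0. Of 10 separate markers of germ cell identity 4 had a row, among them the helicase gene Ddx4 with 0 and 9 reads. The labelled germ cell origin was thus visible in few of its defining markers. The 10 Sertoli cell markers gave 2681 and 2672 reads over the 8 with a row, most of them from Gata4. The 8 Leydig cell markers gave 1800 and 2333 over the 3 with a row, most of them from Nr5a1. The 10 fibroblast and peritubular markers summed to 4339 CPM (reads scaled to the library total) in control and 2120 with BPA, over the 9 that had a row, and the collagen genes Col1a1 and Col1a2 held most of those reads. Myh11 was at 0 in control and had 9 reads with BPA. In bulk RNA, fewer cells of a type and less RNA per cell cannot be told apart, and the part of this difference in the results below was not tested.

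In the integrated stress response, 4 kinases, each sensing a different disturbance, phosphorylate the translation factor eIF2. General protein synthesis then slows while the Atf4 mRNA, whose upstream open reading frames hold its translation low in unstressed cells, is translated more. ATF4 switches on genes of amino acid supply and redox defence together with CHOP, ATF3 and TRIB3, and a phosphatase subunit encoded by Ppp1r15a reverses the phosphorylation of eIF2, which closes the loop. ATF4 and its C/EBP partners bind a composite site, the C/EBP-ATF response element, whose core is TGATGNAA. An mRNA level does not show how much ATF4 protein was made.

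The C/EBP-ATF core was found near the starts of 4 members, for Ddit3 only in a window widened after the values were seen. The 5 stretches with a match are shown as a description. They were read from the RefSeq genome GRCm38.p6 on the strand of the gene, 5′ to 3′, with the match in capitals. The core lies on the opposite strand in the first 4, so it appears as its reverse complement, and the last holds the cAMP response element TGACGTCA, a palindrome that CREB and ATF factors bind.
Trib3: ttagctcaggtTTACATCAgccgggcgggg
Atf3: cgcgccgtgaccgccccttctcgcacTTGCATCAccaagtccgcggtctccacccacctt
Nupr1: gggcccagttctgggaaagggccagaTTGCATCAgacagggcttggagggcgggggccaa
Ddit3: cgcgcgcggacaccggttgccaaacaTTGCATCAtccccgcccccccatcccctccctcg
Ppp1r15a: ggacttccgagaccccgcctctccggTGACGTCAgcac
These stretches lie at chr2:152344028-152344057, chr1:191183410-191183469, chr7:126625547-126625606, chr10:127290466-127290525 and chr7:45526269-45526306, in that order, with Ddit3 on the plus strand and the other 4 on the minus strand. Counted from the RefSeq start, the match began 110 bases before it in both Atf3 and Nupr1, 301 before it in Ddit3 and 12 before it in Ppp1r15a. In Trib3 it began at base 15 of the RefSeq transcript, which is upstream of the start that GENCODE gives, at 152344032.

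Both strands of the 32851 promoter windows of RefSeq were searched, each from 250 bases before to 50 after a start. TGATGNAA was in 3.97% of them and in those of 3 of the 9 members, Trib3, Atf3 and Nupr1. Its form TGATGCAA, a subset of the former, was in 0.895% of windows and in those of Atf3 and Nupr1. TGACGTCA was in 1.79% of windows and, of the members, in that of Ppp1r15a. With the window widened to 1000 bases before the start, a choice made after seeing the data, TGATGNAA was in 13.6% of windows and in 4 members, Ddit3 being the fourth. No match to any of the motifs was in the windows of Atf4, Atf5, Cebpb or Cebpg, which says only that these letters are not there. The match is a description of sequence, not a measured binding site.

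All 9 members were higher in the BPA library, where 51.9% of all 16870 genes lay above a ratio of 0. The intervals of all 9 lay wholly above equality, as did those of 28.2% of all genes. At least 2-fold higher were 6 of the 9, Trib3, Atf3, Nupr1, Ddit3, Ppp1r15a and Cebpb, against 6.88% of all genes, and the intervals of these 6 lay wholly above 2-fold. None of the 9 was 2-fold lower, against 4.61% of all genes, and 8 were at least 1.5-fold higher, against 13.3%, Cebpg being the exception. Atf5, Atf4 and Cebpg were within 2-fold. The median ratio of the members was 1.39 and that of all genes 0.02. Low counts widen the spread of ratios, and every member had at least 500 reads in both libraries together. Among the 9974 genes with that many, a threshold chosen after seeing the data, 1.46% reached 2-fold upward and 1.08% downward. Of these well-covered genes 49.9% lay above 0 and 34.1% had an interval wholly above equality, and their median was 0.00 to 2 decimals.

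**Figure D1:**
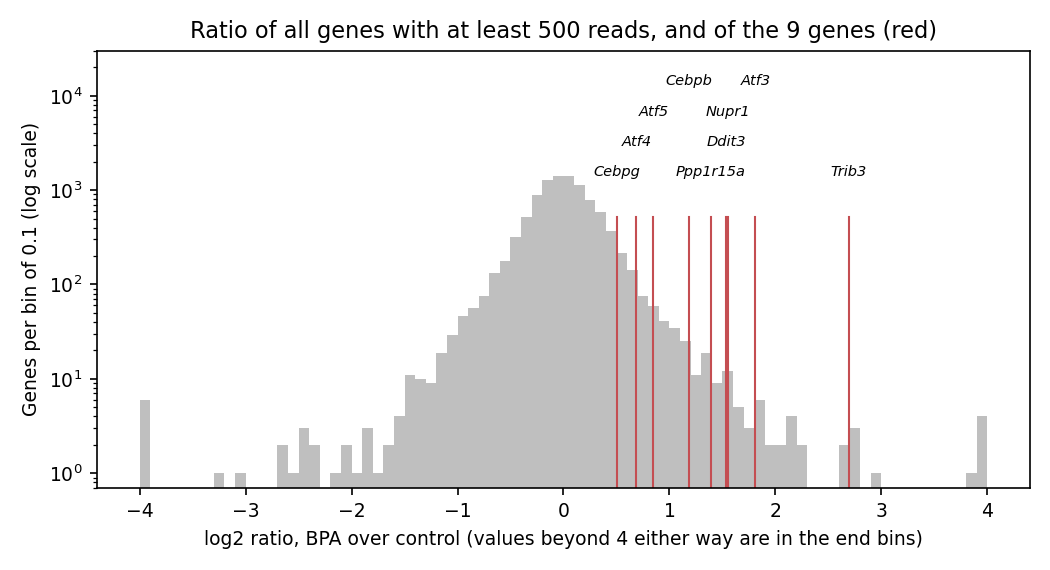
Histogram of the log2 ratio, BPA over control, of the 9974 genes with at least 500 reads, with genes per bin on a log axis and a red line for each of the 9 members. All 9 lines lie to the right of 0, from Cebpg at 0.50 to Trib3 at 2.69.

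Atf4, which encodes the main transcription factor of the response, was by far the most abundant member. Its gene, ENSMUSG00000042406, lies on chromosome 15 (80255184 to 80257541, plus strand, GRCm38) and its exons form 1 block of 2358 bases. It had 16430 reads in control and 28597 with BPA. Scaled to exon length and library total, in the usual unit RPKM, its level was 216 and 367, which placed it 212th and 111th of all genes. The ratio was 0.69 (0.66 to 0.72), a 1.61-fold difference, so the member with the highest level was one of the 2 with the lowest ratios. It still stood 335th of the 9974 well-covered genes, within the upper 3.36%.

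Ddit3 encodes CHOP, which forms dimers with C/EBP proteins, cannot bind their usual sites with them and promotes death when stress lasts. It lies on chromosome 10 (127290774 to 127296288, plus strand; ENSMUSG00000025408) in 4 exon blocks. Its reads were 1639 in control and 5140 with BPA, and its level 29.6 and 90.7 RPKM. The ratio of 1.54 (1.46 to 1.62) was a 2.90-fold difference, 41st of the well-covered genes. Of its exon bases 3.97% overlap those of Mars, the methionyl-tRNA synthetase gene on the other strand, which had 5945 and 8461 reads and a ratio of 0.40. A further 6.13% are shared with a second entry named Ddit3 on the same strand, which was not analysed here.

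Atf3, a bZIP factor induced by many stresses that mostly represses, was the member with the lowest level in control. Its gene on chromosome 1 (191170296 to 191218039, minus strand; ENSMUSG00000026628) spans a second start far upstream of the one searched for motifs. It had 471 reads in control and 1789 with BPA, at 6.77 and 25.1 RPKM. Its ratio of 1.81 (1.67 to 1.96), a 3.51-fold difference, was the second highest of the members and 25th of the well-covered genes. No other annotated gene shares its exons.

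Atf5, an ATF4-related factor that is also translated through upstream open reading frames and serves the mitochondrial stress response, was second to Atf4 in control. It lies on chromosome 7 (44812256 to 44816658, minus strand; ENSMUSG00000038539). The reads were 2737 and 5327, and the level 42.5 and 80.8 RPKM. Its ratio of 0.85 (0.78 to 0.92), or 1.80-fold, was below 2-fold. Of its exon bases 4.11% overlap Nup62 on the other strand, with 3339 and 3730 reads, and as many overlap Il4i1, also on the other strand, with 0 and 3.

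The C/EBP members differed from each other. Cebpb, which encodes a factor that binds DNA as a dimer with ATF4 or CHOP and is active in inflammation and differentiation, had 483 reads in control and 1184 with BPA, at 9.94 and 23.8 RPKM. Its ratio was 1.18 (1.03 to 1.34). The gene is 1 exon block of 1504 bases on chromosome 2 (167688915 to 167690418, plus strand; ENSMUSG00000056501), and 20.7% of it overlaps Tmem189 on the other strand, which had 2951 and 3439 reads. The libraries kept strand, per the labels' protocols, but whether the counting used it was not given in the sources used here, so reads of Cebpb and of its neighbour may not be fully told apart.

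Cebpg encodes a short C/EBP protein without an activation domain of its own that pairs with ATF4. It lies on chromosome 7 (35046422 to 35056573, minus strand; ENSMUSG00000056216). With 1569 and 2400 reads over 5621 exon bases its level was 8.64 and 12.9 RPKM, and its ratio of 0.50 (0.41 to 0.59) was the lowest of the 9. The level of Cebpg was 0.869 times that of Cebpb in control and 0.542 times with BPA. Cebpb was thus the more abundant of both in each library and by a wider margin with BPA, as far as the shared reads of Cebpb allow. CHOP mRNA was 2.98 times as abundant as Cebpb mRNA per length in control and 3.81 times with BPA, and 3.43 and 7.03 times as abundant as Cebpg mRNA.

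Trib3, which encodes a pseudokinase that binds ATF4 and CHOP and restrains them, had the highest ratio. It lies on chromosome 2 (152337422 to 152344032, minus strand; ENSMUSG00000032715), and no other gene shares its exons. Its 985 reads in control and 6890 with BPA gave 14.3 and 98.0 RPKM, from rank 5 in level among the members to rank 2. The ratio of 2.69 (2.60 to 2.79), a 6.47-fold difference, was 11th of the 9974 well-covered genes and 237th of all 16870. Atf4 mRNA was 15.0 times as abundant as Trib3 mRNA per length in control and 3.74 times with BPA.

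Ppp1r15a encodes GADD34, the inducible subunit that brings protein phosphatase 1 to eIF2 and so ends the block of translation. It lies on chromosome 7 (45522916 to 45526268, minus strand; ENSMUSG00000040435). It had 2218 reads in control and 6272 with BPA, at 23.4 and 64.6 RPKM, and a ratio of 1.39 (1.32 to 1.46), or 2.62-fold. Its constitutive counterpart Ppp1r15b, named after its values were seen, gave 5802 and 6843 reads, with a ratio of 0.13 (0.08 to 0.18).

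Nupr1, which encodes a small stress-induced chromatin protein, had 585 reads in control and 1860 with BPA, at 7.20 and 22.4 RPKM. Its ratio of 1.56 (1.42 to 1.69), 2.94-fold, was 39th of the well-covered genes. The gene on chromosome 7 (126623249 to 126630861, minus strand; ENSMUSG00000030717) shares no exon with another gene. It extends upstream of the RefSeq start searched for motifs, at 126625470. The match therefore lies inside the gene as GENCODE gives it. Its paralogue Nupr1l had 5 and 7 reads.

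**Figure D2:**
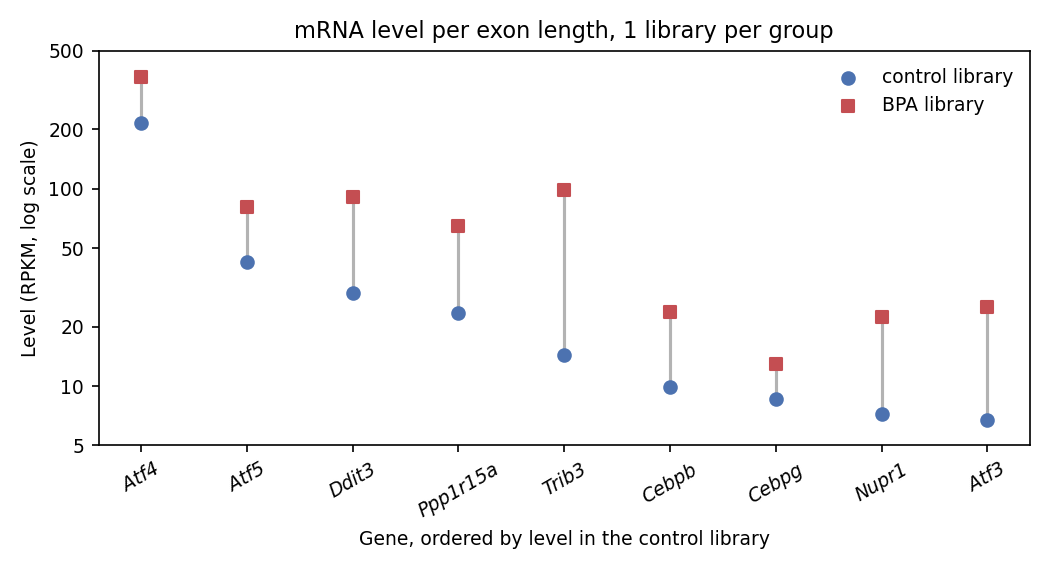
Level of each member in RPKM on a log axis, with 1 point for the control library and 1 for the BPA library, joined by a line, in the order of the control level. Atf4 is highest in both, from 216 to 367, and the longest line is that of Trib3, from 14.3 to 98.0.

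In the order of the ratios, Trib3 stood apart from the next member, Atf3, by 0.88 with intervals that did not overlap. Nupr1 and Ddit3 differed by 0.02, with a counting interval of the difference from -0.14 to 0.18 that includes 0. The other neighbours differed beyond counting error, which is not replicate error. Those differences were 0.26 (0.06 to 0.45) between Atf3 and Nupr1, 0.15 (0.04 to 0.26) between Ddit3 and Ppp1r15a and 0.21 (0.04 to 0.38) between Ppp1r15a and Cebpb, and the intervals of Cebpb, Atf5, Atf4 and Cebpg did not overlap from each to the next. Ratios above 1.5 belonged to Trib3, Atf3, Nupr1 and Ddit3, which held ranks 5, 9, 8 and 3 of the control levels.

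**Figure D3:**
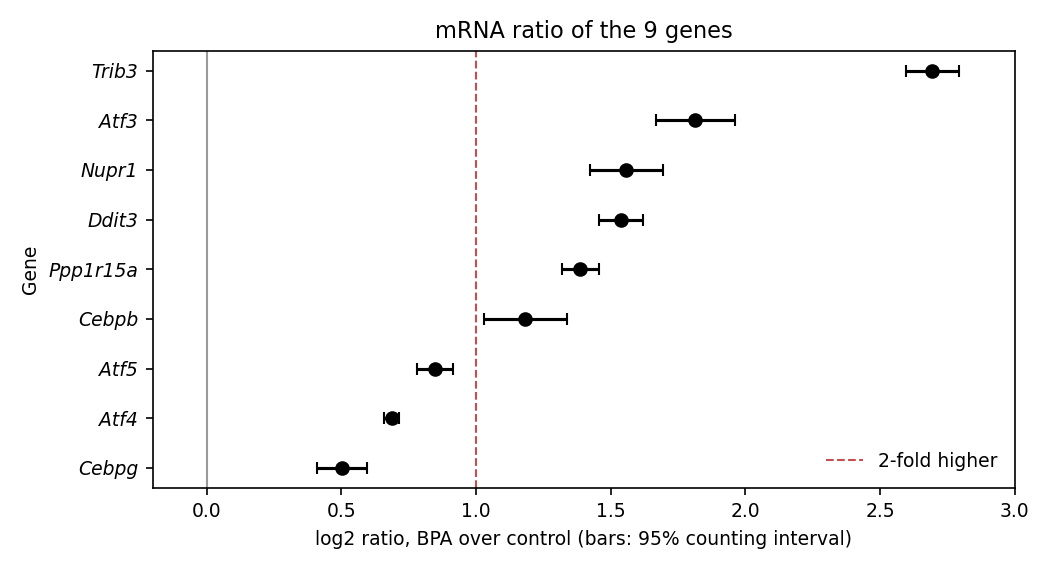
The log2 ratio of each member with its 95% counting interval as bars, and a dashed line at 2-fold. Cebpb and the 5 members above it lie to the right of the dashed line, and Atf5, Atf4 and Cebpg to its left.

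The 9 genes together made up 0.0839% of the reads in control and 0.180% with BPA. Atf4 gave 60.6% of their reads in control and 48.1% with BPA. Without it the sum went from 331 to 933 CPM, a ratio of normalised sums of 1.42, against 1.02 with it.

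Set beside the sequences above, the 4 members with TGATGNAA within 1000 bases of the start were the 4 with the highest ratios, 1.54 to 2.69, and Ppp1r15a with TGACGTCA came next. That window was widened after the values were seen, so this order is a description only and not independent support. No test was made on 9 genes chosen together. In the narrower 300-base window, 3 of the 9 members held the core and Ddit3 did not. That narrower window was the one used for 36 compared ATF4 targets outside the members. The 12 targets with the core had a median ratio of 1.02 (0.22 to 2.60). The 24 without it had 0.83 (-1.31 to 2.94), so the ranges overlapped.

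**Figure D4:**
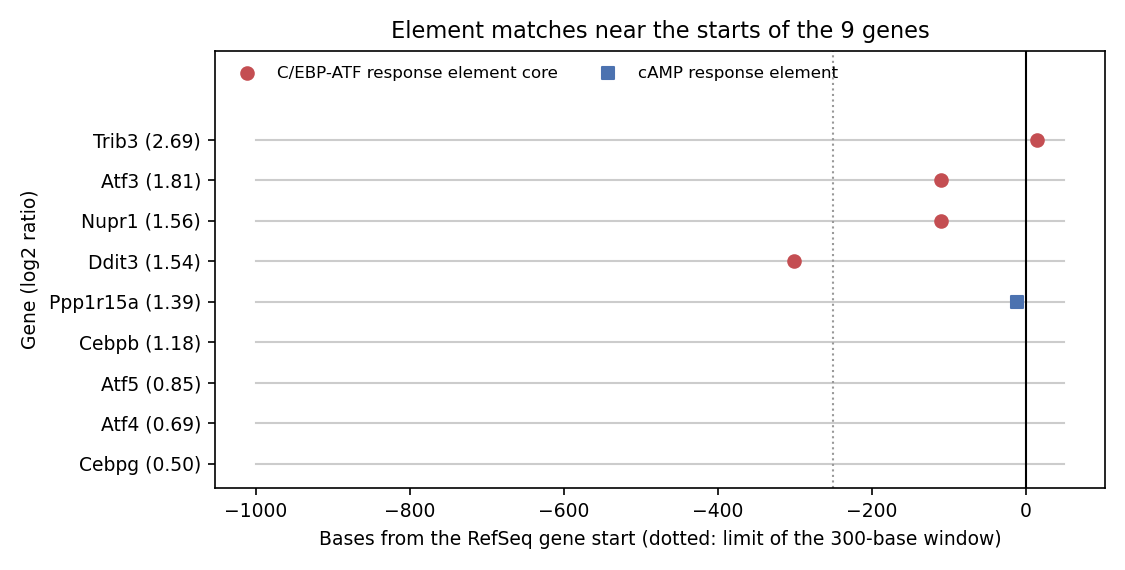
Matches to the C/EBP-ATF core (circles) and the cAMP response element (square) by distance in bases from the RefSeq gene start, with the genes ordered by ratio. The circles are on the top 4 rows, Trib3 to Ddit3, the square is on that of Ppp1r15a, and the 4 lowest rows hold none.

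The kinases that act upstream of ATF4 were within 2-fold and went in either direction. Of 8 compared genes of the kinases and their regulators, 4 were above 0 and 4 below, and the median was 0.00. None was at 2-fold, but most of all genes were not either, with 6.88% higher and 4.61% lower. Eif2ak3, which encodes PERK, the sensor of the endoplasmic reticulum, was at 0.18 (0.07 to 0.29) from 1273 and 1558 reads. Eif2ak1, the heme-regulated kinase, was at -0.11 and Eif2ak2, the kinase activated by double-stranded RNA, at -0.07. Eif2ak4, which encodes the amino acid sensor GCN2, was at -0.45 (-0.56 to -0.35) from 1690 and 1335 reads, and Impact, an inhibitor of GCN2, 1842 and 2506 reads and 0.33 (0.25 to 0.42). The activity of a kinase is set mainly on the protein and is not measured here.

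A list of 16 genes of eIF2, eIF2B, the eIF2 phosphatase and related initiation factors such as Eif2a and Denr had a median of -0.04. None was at 2-fold, beside 6.88% of all genes higher and 4.61% lower. It includes Ppp1r15b. Eif2s2, the beta subunit of eIF2, was highest at 0.35 and Ppp1cc, a catalytic subunit of the phosphatase, lowest at -0.64. Genes that control the stability or activity of ATF4 had a median of 0.02 over 11, none at 2-fold, beside the same shares of all genes. The kinase gene Dapk3 was at 0.36, and Egln3, an oxygen-sensing prolyl hydroxylase that hypoxia also induces, was lowest at -0.84 with 1378 and 829 reads.

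Relatives of the members within the C/EBP and Tribbles families went in either direction, some on few reads. Cebpd was at -0.26 (-0.47 to -0.04) from 377 and 341 reads, and Cebpz, which lacks a bZIP domain, at -0.10. Cebpa had 3 and 10 reads, and its ratio of 1.37 had an interval from -0.33 to 4.12 that includes equality. Of the Tribbles genes, Trib1 was at -0.75 (-0.87 to -0.62) from 1359 and 874 reads, opposite in direction to Trib3, and Trib2 at 0.27 (-0.16 to 0.70) from 83 and 108.

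Of 48 genes outside the 9 that ATF4 is known to switch on, 47 had a ratio above 0, against 51.9% of all genes. At least 2-fold higher were 20, against 6.88% of all genes, 27 were within 2-fold and 1 was at least 2-fold lower, Cbs, from 22 and 9 reads, which was named after its values were seen. Their median was 0.90. The list was set with earlier results of these data known, so these shares describe it and are not independent support. Gdf15, a stress cytokine, was at 2.94 from 15 and 131 reads, and Adm2, a hormone of the calcitonin family, at 2.73 from 12 and 92. Slc6a9, a glycine transporter, was at 2.70 (2.58 to 2.82) from 644 and 4517 reads, and Chac1, which degrades glutathione, was at 2.23. Lowest of those with at least 100 reads were the amino acid transporter Slc38a2 at 0.18 and the tyrosyl-tRNA synthetase Yars at 0.22.

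Known targets of CHOP, 16 in all, of which 6 are also ATF4 targets on the list above, had a median of 0.77. At least 2-fold higher were 7, against 6.88% of all genes, and none was 2-fold lower, against 4.61%. Without those 6, the median was 0.51 and 4 of 10 were 2-fold higher. The largest ratio was that of Car6, a carbonic anhydrase, with 16 reads in control and 545 with BPA, 4.90 (4.27 to 5.80). After Slc6a9 and Chac1 followed Sesn2, a sestrin that restrains growth signalling, at 1.67. The apoptosis regulators on the list did not share a direction. Bbc3, which encodes the pro-death protein PUMA, was at 0.62 (0.39 to 0.85), Pmaip1, which encodes NOXA, at 0.40 (0.19 to 0.62) and Bax at 0.12, all named after their values were seen. Bbc3, Pmaip1 and Bax are also on the list of p53 targets below. Tnfrsf10b, another regulator named after its values were seen, was at 0.02 (-0.08 to 0.12) from 1517 and 1663 reads. Bcl2l11, which encodes the pro-death protein BIM, was at -0.56 (-0.80 to -0.32) from 342 and 251 reads, and Bcl2, which CHOP is known to repress, at -0.45 (-0.63 to -0.28) from 605 and 477.

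The XBP1 and ATF6 branch, which raises the folding capacity of the endoplasmic reticulum, had a median of 0.19 over 32 genes, with 26 above 0, against 51.9% of all genes. At least 2-fold higher were 2, both with at least 500 reads. The share was 6.88% of all genes and 1.46% of those with at least 500 reads. None was 2-fold lower, against 4.61% and 1.08%. Dnajb9, a co-chaperone, was highest at 1.34, and Ssr1, a subunit of the translocon, lowest at -0.20. The other gene at 2-fold was Herpud1, at 1.06, which was named after its values were seen. Both are also on the CHOP list.

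**Figure D5:**
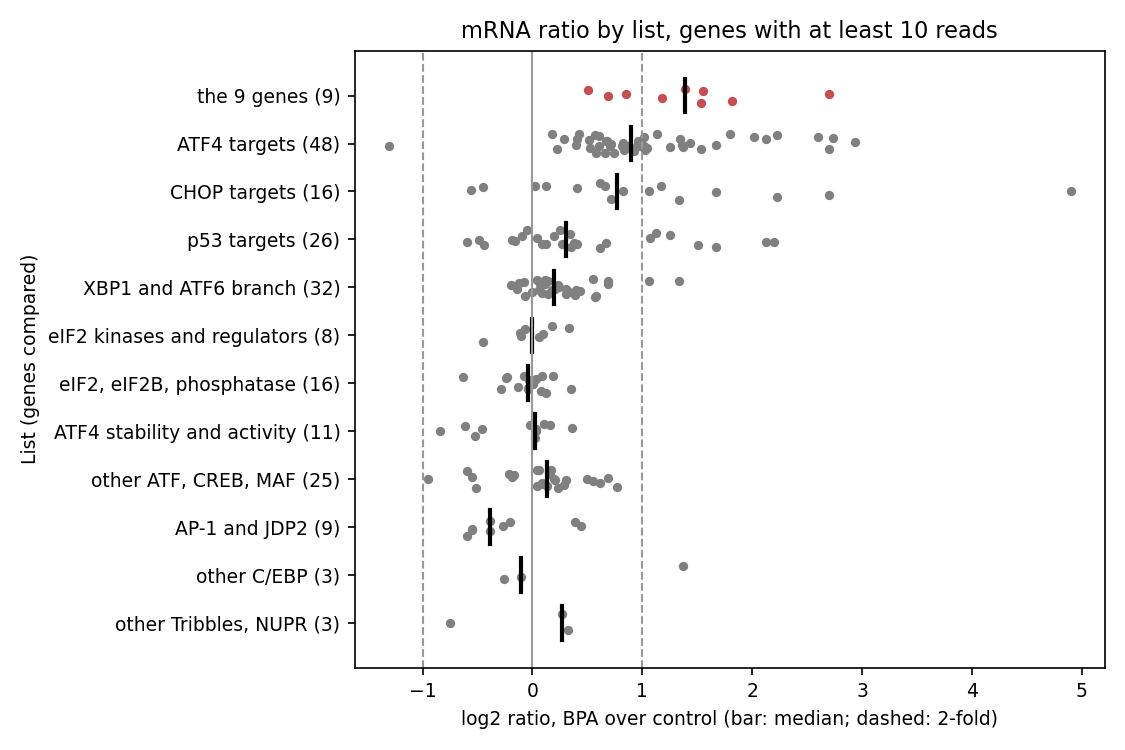
The log2 ratio of every compared gene by list, with a bar at the median, dashed lines at 2-fold and the number of genes in parentheses. The 9 members, in red, have a median of 1.39, ATF4 targets 0.90, CHOP targets 0.77 and the kinase list 0.00.

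In the circular RNA libraries of the same cultures, with 12909 back-splice events in control and 17586 with BPA, none of the 9158 listed circular RNAs came from a member. A count of 0 allows up to 0.0232% and 0.0171% of the events. The share of all genes with a listed circular RNA was not counted, so the 0 is not read as a trait of the members. In the authors' deposited table, the p-value of Atf4 was 0.0438 and that of Cebpg 0.0919, while those of the other 7, which include the 6 with the highest ratios, lay between 0.300 and 0.308. The adjusted value was 0.961 for all 9. The test behind that table was not given in the sources used here.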

How the data were processed

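Strand-specific mRNA libraries made with a TruSeq kit, per the labels' protocols, were used for the comparison, and circular RNA libraries for 1 check. Per the submitters' processing notes, STAR and StringTie were named for mRNA, with the builds GRCm38 and mm10, and the counter and its strand setting were not given in the sources used here. Both the deposited mRNA and circular RNA values were log2 values. Undoing the log2 of the mRNA table and subtracting 1 gave whole multiples of 1.03943 in control and 0.962066 with BPA, within 0.001 of a read for 100% of the values, and so the whole reads. The authors' deposited p-values were quoted only. The deposited miRNA counts, 3927981 and 3452574 reads, were used for nothing else. Circular RNA values, undone likewise, were 2 times a whole number, which was taken as the event count.

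Ratios used the authors' scaling, a pseudocount of 1 and genes with at least 10 reads. Exact conditional binomial (Clopper-Pearson) 95% intervals came from SciPy 1.17.1, and the calculation was run on simulated data. The simulated reads followed the model behind the interval, so that check does not cover variation between cultures or from PCR. The interval leaves out the error of the scaling. A 2-fold difference in either direction was counted. RPKM used exon lengths of GENCODE M21. TMM scaling used edgeR 4.0.16. The members and lists were chosen with earlier results of these data known. All 9 members were named, and of each list the highest and lowest ratio with at least 100 reads, or the 4 highest and 2 lowest of the ATF4 and CHOP targets, all 4 kinases and all C/EBP and Tribbles relatives. Ppp1r15b, Cbs, Herpud1, Bbc3, Pmaip1, Bax and Tnfrsf10b were named outside this rule. So were Arid5a, Arl2bp, Fen1, Chchd10, Pck2, Rab39b, Got1, Trim46, Mdfic, Ank2 and Lgals3bp. Counting intervals of differences between ratios used the Woolf approximation. Protein sequences were to be compared but were not used here.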

Additional observations from a re-analysis of the deposited data

How the results depend on the processing

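The count of 6 members at least 2-fold higher was the same with a pseudocount of 0.5 or 5, with scaling by the library total or TMM, and with no filter or at least 50 or 500 reads. It was 8 at 1.5-fold, where 13.3% of all genes were counted, and 4 of 5 without the members that share over 1% of their exon bases with another gene, a setting added after seeing the data. Of 36 member ratios under other pseudocounts and scalings, 33 stayed within the counting interval, and all kept their direction. The other 3, under the library total, were Atf4 at 0.77, Atf5 at 0.93 and Ppp1r15a at 1.47. That scaling moved the median of all genes from 0.02 to 0.09, and TMM to 0.00 to 2 decimals.

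Over all genes, 1160 were at least 2-fold higher and 778 lower. With at least 50 reads these counts were 440 and 277, with at least 500 reads, added after seeing the data, 146 and 108, with no filter 2978 and 2381, and at 1.5-fold 2252 and 1717. Fewer or more genes enter under each filter. For the other C/EBP factors, the 1 gene at 2-fold, Cebpa, was no longer counted with a pseudocount of 5 or at least 50 reads, leaving 0, and the median was -0.024 under the library total. The 1 ATF4 target counted as lower, Cbs, was lost with at least 50 reads, leaving 0. Without targets shared with ATF4, a setting added later, the CHOP list had 4 genes at 2-fold and a median of 0.51. With TGACGTCA in place of TGATGNAA, 1 member held the motif in the 300-base window.

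No paired analysis was possible because each group was 1 library, and leaving out a replicate was not possible for that reason either. The planned minimum of 5 back-splice events left the count of circular RNAs from the members at 0.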

Other observations

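Other factors of the bZIP class share the DNA-binding and dimer-forming fold of 6 of the members. These other factors were within 2-fold, as were most of all genes, with 6.88% higher and 4.61% lower. Of 25 compared ATF, CREB and MAF-type factors 18 were above 0, against 51.9% of all genes, with a median of 0.13. Nfe2l2, which encodes NRF2, the regulator of antioxidant genes and a dimer partner of ATF4, was highest at 0.77 (0.69 to 0.85) from 2053 and 3789 reads. Creb3l1, a membrane-bound factor that activates collagen genes, was lowest at -0.95 (-1.07 to -0.83) from 1569 and 876. The AP-1 and JDP2 group had 2 of 9 above 0 and a median of -0.39. Jund was highest at 0.44 and Fos lowest at -0.60, from 239 and 170 reads.

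Targets of p53, a factor that the line carries in a temperature-sensitive form, had a median of 0.31 over 26, with 7 at least 2-fold higher, against 6.88% of all genes, and none 2-fold lower, against 4.61%. Gadd45a, a growth-arrest gene, was highest at 2.20 from 447 and 2221 reads, and Plk2 lowest at -0.60. Without the 2 genes also listed as ATF4 targets, a setting added later, 24 remained. Of these 24, 5 were at least 2-fold higher, and the median was 0.26.

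The C/EBP-ATF core was also counted outside the members and the listed ATF4 targets, after the values were seen. Of genes with at least 500 reads and a promoter window of 300 bases, 172 held TGATGNAA. At least 2-fold higher were 12 of these 172 (6.98%), against 82 of 7352 (1.12%) without it. The medians were 0.07 and 0.00, and the ratios of those with it ran from -1.18 to 1.86. With at least 10 reads both shares were higher, 41 of 273 (15.0%) against 596 of 10214 (5.84%). Highest of the 12 with at least 500 reads were Arid5a at 1.86, Arl2bp at 1.70, the flap endonuclease gene Fen1 at 1.61 and Chchd10 at 1.57. The mitochondrial enzyme gene Pck2 was at 1.56 from 1803 and 5748 reads, Rab39b at 1.45, the aspartate aminotransferase gene Got1 at 1.25 and Trim46 at 1.22. Mdfic was at 1.13, Herpud1 at 1.06, Ank2 at 1.02 and Lgals3bp at 1.01. All 12 were named after the values were seen. Herpud1 is also on the CHOP list and on that of the XBP1 and ATF6 branch. Whether others of the 12 are known targets of ATF4 was not checked, so the shares are not independent support. No test was made of the difference in shares.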
